A study of Mus musculus with 4 samples.

Results

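Maf, Mafa, Sox6, Prox1 and Tbx15 are transcription factors that help set the contractile type of skeletal muscle fibres. The 5 genes were taken by symbol from the mm10 annotation, out of 21668 protein-coding genes annotated on the X chromosome and the autosomes. Their acetylation was read in H3K27ac ChIP-seq peak lists of the gastrocnemius, a calf muscle of mostly fast fibres. H3K27ac is the acetylation of lysine 27 on histone H3, a mark of active promoters and enhancers. All samples formed 1 group of female adult B6CASTF1/J hybrid mice aged 2 months, with no treatment and no control group named in the labels. Each of the 2 biological replicates pooled 2 tissue samples and was sequenced as 2 technical libraries, 4 libraries in all. The main values are therefore given for the replicated list, which the authors made from both replicates, and for the lists of replicate 1 and replicate 2, and the only error that can be shown is the difference between the lists of the 2 replicates.

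Mouse muscle mixes slow fibres, which carry the myosin Myh7, with fast fibres that carry Myh2, Myh1 or Myh4. The large Maf factors, basic leucine zipper proteins, drive Myh4 and the IIb programme in the fastest fibres. Sox6, an HMG-box protein of the SoxD group, represses slow genes in fast fibres, Prox1, a homeodomain protein also needed by lymphatic endothelium, supports the slow programme, and Tbx15, a T-box protein, is found in glycolytic fibres and in some mesenchymal cells. A peak of a bulk tissue does not tell which cells carry it, and fewer acetylated cells cannot be told apart from less mark per cell.

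The lists held 84452 regions in the replicated list, 70953 for replicate 1 and 86937 for replicate 2, and the depth of the libraries is unknown. The authors' signal value of a region has a scale that the sources used here do not give, so it is read only within a list. A promoter region is one within 1000 bp of an annotated transcript start of the gene. The acetylated length is how much of the 10000 bp centred on a start lay in regions, in base pairs, taking the start of the gene with the largest value. The locus is the gene body plus 100 kb to each side. Percentiles place a gene among all protein-coding genes and are descriptions.

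In the replicated list a promoter region was found at 5 of the 5 genes, against 61.2% of all protein-coding genes. Both single-replicate lists had one at 5 of the 5 as well, against 58.6% of protein-coding genes. Most protein-coding genes carry such a region, so its presence says little about these 5, and the genes differed from each other in how far the mark spread. The acetylated length was 9648 bp at Tbx15, 8666 bp at Maf, 6961 bp at Sox6, 4861 bp at Mafa and 3142 bp at Prox1 in the replicated list, against a median of 1470 bp over all protein-coding genes. In the replicate 1 list the lengths were 9028 bp at Tbx15, 7582 bp at Maf, 6783 bp at Sox6, 3349 bp at Mafa and 1637 bp at Prox1, against a median of 1185 bp. In the replicate 2 list they were 8835 bp at Tbx15, 8776 bp at Maf, 6906 bp at Sox6, 5402 bp at Mafa and 3213 bp at Prox1, against a median of 1467 bp. The order was the same in all 3 lists, but Tbx15 and Maf differed by 59 bp in replicate 2, less than either moved between replicates, so those neighbours in the order are not separated.

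**Figure D1:**
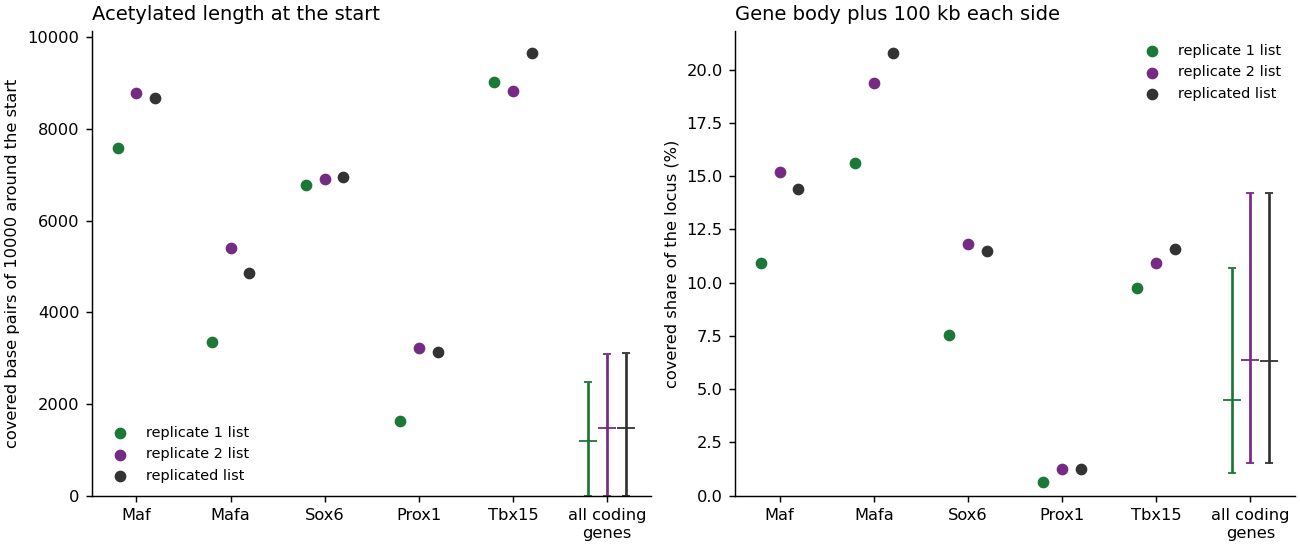
Left, acetylated length (covered base pairs of 10000 around the start) and right, covered share of the locus (percent) for each gene in the lists of replicate 1, replicate 2 and both replicates; the last column shows the median of all 21668 protein-coding genes with bars from the first to the third quartile. Tbx15, Maf, Sox6 and Mafa lie above the third quartile of acetylated length in every list, whereas Prox1 has the lowest length of the 5, close to or below that quartile, and a locus share below the median of all genes.

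The whole locus gave another order. Regions covered 20.8% of the Mafa locus, 14.4% of the Maf locus, 11.6% of the Tbx15 locus, 11.5% of the Sox6 locus and 1.24% of the Prox1 locus in the replicated list, against a median of 6.32% over the loci of all protein-coding genes. In replicate 1 the shares were 15.6% for Mafa, 10.9% for Maf, 9.75% for Tbx15, 7.54% for Sox6 and 0.648% for Prox1, with a median of 4.50%. In replicate 2 they were 19.4% for Mafa, 15.2% for Maf, 10.9% for Tbx15, 11.8% for Sox6 and 1.27% for Prox1, with a median of 6.37%. Tbx15 and Sox6 changed places between the replicates and are not separated by this measure. Prox1 lay at percentile 23.2 and Mafa at percentile 88.2 of all genes in the replicated list.

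**Figure D2:**
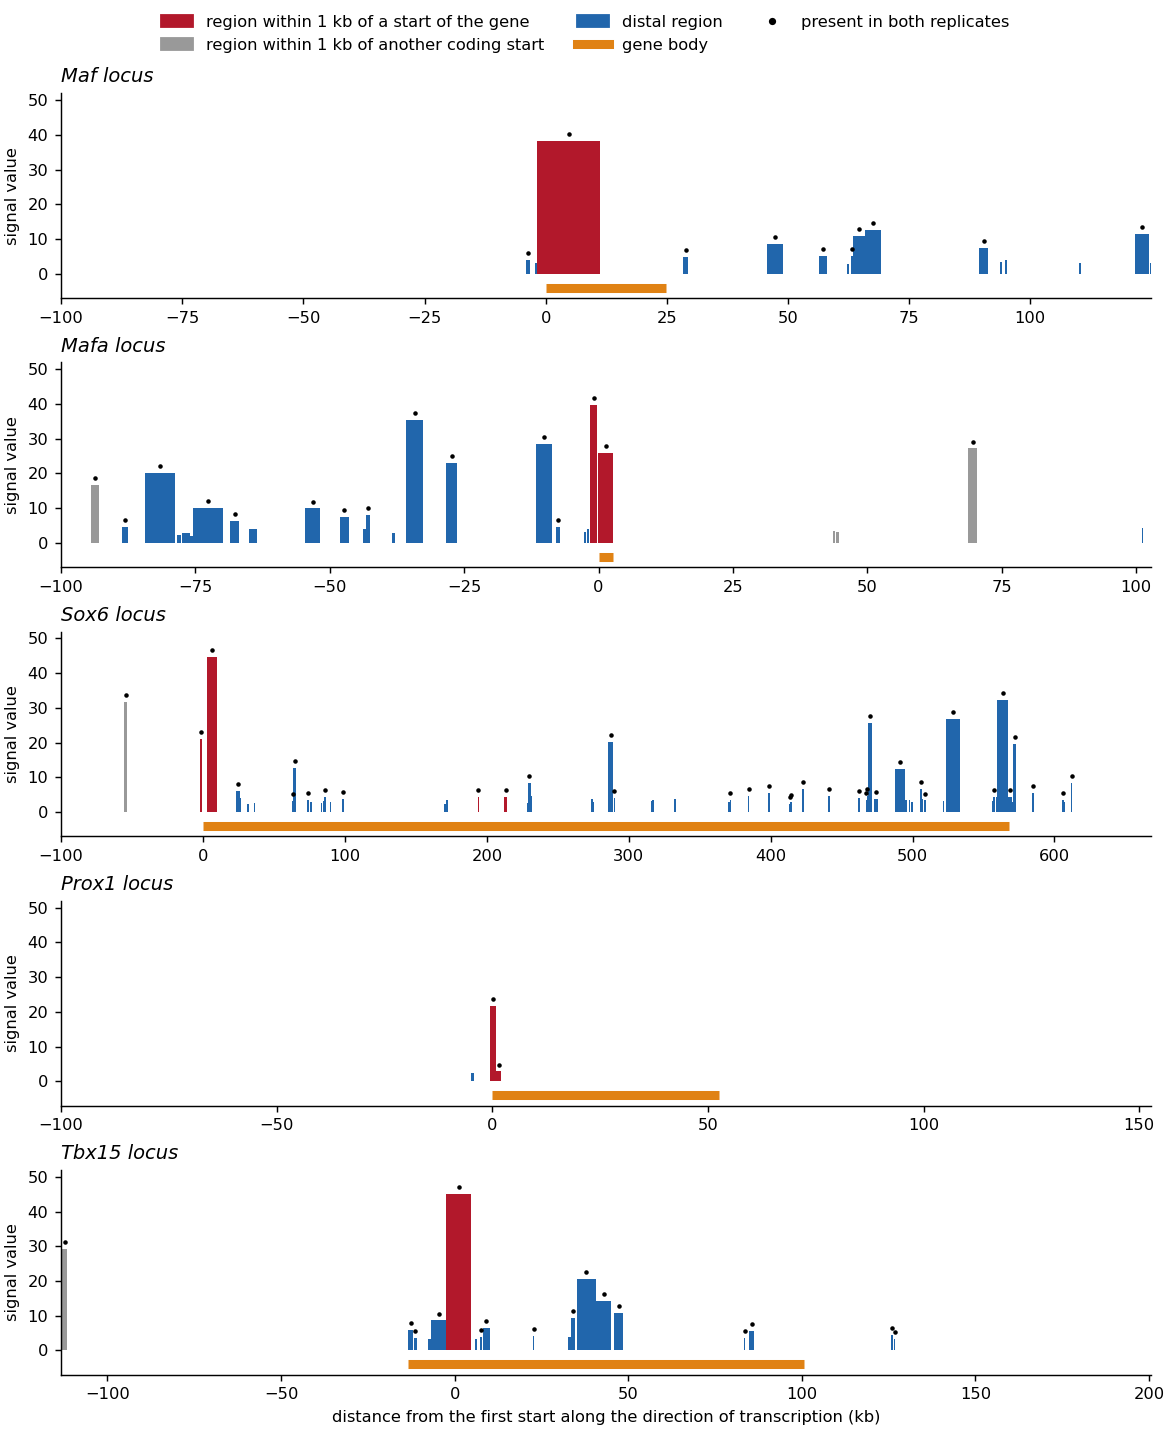
Regions of the replicated list over the 5 loci; the horizontal axis is the distance in kb from the first annotated start along the direction of transcription, the height is the deposited signal value, dots mark regions present in both replicates and the orange bar is the gene body. Maf and Mafa have distal regions on opposite sides of the gene, Sox6 and Tbx15 within it, and the Prox1 locus is bare beyond its start.

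Among the large Maf factors, Maf (ENSMUSG00000055435.6, chr8:115682942-115707794, minus strand) had the more extended mark at its start. A single region, chr8:115696581-115709518, covered both annotated starts and was 12938 bp wide in the replicated list, with a signal value of 38.3. It was 8014 bp wide with a signal value of 29.6 in replicate 1, and 12984 bp wide with a signal value of 38.0 in replicate 2. Replicate 1 had 3 regions in the gene body where the replicated list had 1, so the difference in width is in part a difference in how the stretch was divided into regions. The signal value was at percentile 73.2 among genes with a promoter region, while the acetylated length was at percentile 98.2 of all genes: the Maf start stood out by width more than by height. The region also covers the antisense gene Gm15655, and H3K27ac carries no strand, so its share in the mark cannot be told apart.

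The remaining acetylation of the Maf locus lay almost all on the side downstream of the gene. Of 16 regions in the replicated list, 13 were downstream, 1 was the promoter region and 2 were upstream, with summits at −1.99 and −3.76 kb from the first start, where negative distances are upstream. No region was found in the 95.9 kb farther upstream in any of the 3 lists. The strongest distal regions were chr8:115638693-115641875, with its summit 68.1 kb from the first start and a signal value of 12.7, chr8:115583250-115586132 at 123 kb with 11.4, and chr8:115641959-115644308 at 65.4 kb with 10.9. All of these regions were present in both replicates, with signal values of 8.29, 8.29 and 8.76 in replicate 1 and of 15.4, 13.2 and 15.4 in replicate 2, where a single region covered the stretch at 65.4 and 68.1 kb and gave both values of 15.4. No other coding gene starts in the locus, and the nearest coding starts were those of Dynlrb2, 797 kb away on the upstream side, and Wwox, 1243 kb away on the downstream side. The long noncoding gene 4930488N15Rik overlaps the region at 123 kb.

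Mafa (ENSMUSG00000047591.5, chr15:75745490-75748228, minus strand) is a gene of a single annotated start, and its mark was split at that start. The upstream region, chr15:75748436-75749863, had a signal value of 39.8 in the replicated list, with 31.3 in replicate 1 and 39.4 in replicate 2. The region over the gene body, chr15:75745548-75748284, had signal values of 26.0, 19.2 and 28.4 in the same order of lists. A gap of 151 bp separated them in the replicated list. The gene body itself was covered over 97.9% of its length in the replicated list, with 82.3% in replicate 1 and 99.4% in replicate 2.

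Upstream of Mafa stood the strongest distal region of the 5 loci in the replicated list. In replicate 1 it was not separated from the region over the last exon of Sox6, which reached 24.5 there. The region chr15:75780838-75783977, with its summit at −34.0 kb, reached a signal value of 35.4 in the replicated list, with 24.6 in replicate 1 and 39.2 in replicate 2. These values lay below those of the Mafa promoter region in every list, by the least in replicate 2. The regions chr15:75756883-75759794, at −10.2 kb, and chr15:75774545-75776515, at −27.4 kb, had signal values of 28.4 and 23.0 in the replicated list, with 20.6 and 16.1 in replicate 1, and 31.1 and 26.0 in replicate 2. All 3 lie in introns of the neighbouring gene Zc3h3, a zinc finger gene, and so did 17 of the 20 distal regions of the locus. Only 11 of the 26 regions were nearer to the start of Mafa than to that of another coding gene, among them these 3, so the high covered share of this locus is in part that of Zc3h3, Top1mt and Rhpn1. The reference sequence around the summit of the 35.4 region, chr15:75782152-75782351 on the plus strand of GRCm38 (mm10), is printed because no other distal region of the 5 loci had a higher signal value, and it held none of the 10 motifs searched:
Mafa distal region: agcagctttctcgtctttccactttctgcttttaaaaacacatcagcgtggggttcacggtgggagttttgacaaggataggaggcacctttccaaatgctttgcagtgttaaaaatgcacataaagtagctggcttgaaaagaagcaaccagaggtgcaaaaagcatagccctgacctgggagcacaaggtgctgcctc

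The Zc3h3 promoter region, chr15:75841131-75842597, had a signal value of 16.6, below the 35.4 of the intronic region. The Top1mt promoter region had 27.2. Both Rhpn1 promoter regions were weak, at 3.20 and 3.48, and neither was present in replicate 1.

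Sox6 (ENSMUSG00000051910.13, chr7:115470872-116038796, minus strand) spans 567925 bp and has 6 annotated starts, whose acetylation differed widely. The second start, at position 116031047, lay in a region of 6961 bp, chr7:116028766-116035726, with a signal value of 44.7 in the replicated list, and of 34.1 in replicate 1 and 43.4 in replicate 2. That region was 6783 bp wide in replicate 1 and 6906 bp in replicate 2, the closest match in width between replicates among the strongest promoter regions of the 5 genes. The antisense gene Sox6os lies within it, and its share in the mark cannot be told apart. The first start, at 116038744, had a region 359 bp upstream of its position, chr7:116039103-116040793, with signal values of 21.1, 15.9 and 21.9 in the replicated, replicate 1 and replicate 2 lists. This region also covers the 5′ end of the divergent coding gene 1110004F10Rik, so which gene it belongs to cannot be told apart. The third start, at 115995086, had no acetylated base within 5000 bp in any list, and the nearest region was 7168 bp away in the replicated list. Starts 4 and 5, 35 bp apart, were 856 and 821 bp from a weak region with a signal value of 4.42, and in replicate 1 that region was 1084 and 1049 bp away, just past the limit of 1000 bp. The sixth start, at 115824710, lay in a region with a signal value of 4.48 in the replicated list, with 3.87 in replicate 1 and 4.92 in replicate 2.

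**Figure D3:**
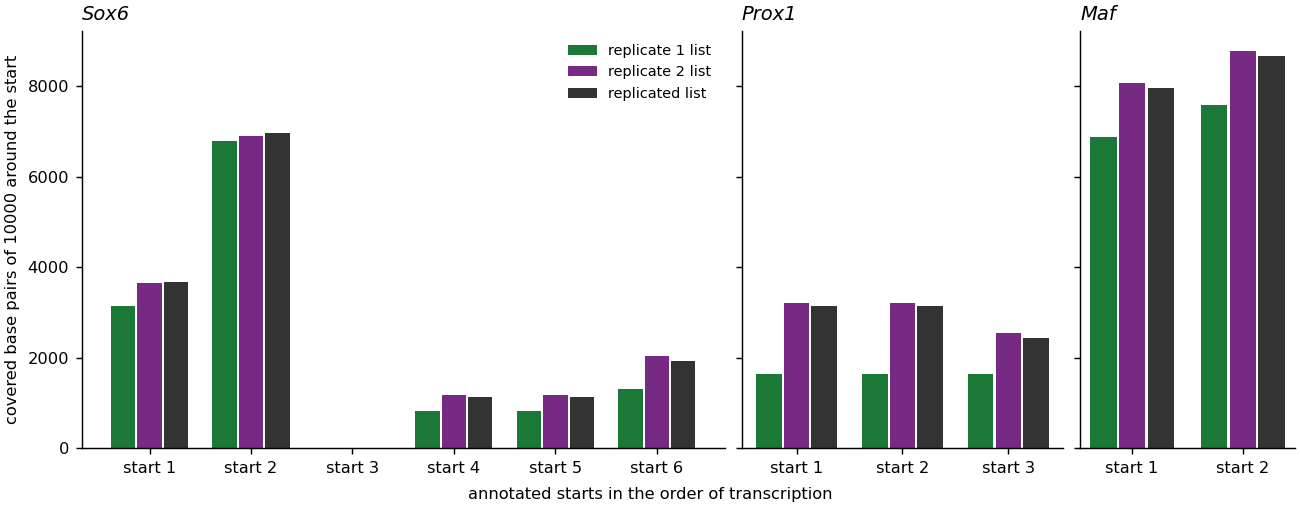
Acetylated length (covered base pairs of 10000) at each annotated start of Sox6, Prox1 and Maf in the lists of replicate 1, replicate 2 and both replicates. At Sox6 the second start carries 6961 bp in the replicated list and the third start carries none, whereas both starts of Maf and the starts of Prox1 lie within 5 kb of each other and share their regions.

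The promoter sequences of Sox6 also differed in base composition. In the RefSeq promoter table of GRCm38, which matched Sox6 and Prox1 of the 5 genes and not Maf, Mafa and Tbx15, the 250 bases upstream of the second start held 10 CG dinucleotides at 60.8% GC. Those upstream of the first start held 9 at 45.2% GC, and those upstream of the third start held 2 at 41.6% GC. The entries for the fourth and the sixth start held 2 each, also at 41.6% GC, and a further RefSeq start at 115801609, with no region within 1000 bp in the replicated list, held 1 at 34.0% GC. The median over 32851 promoters of the table was 6 CG dinucleotides, with quartiles of 2 and 16, at 52.4% GC. The second and the third start are printed as the most acetylated and the bare one, 5′ to 3′ on the minus strand, from chr7:116031048-116031297 and chr7:115995087-115995336, with CG dinucleotides in capitals:
Sox6 start 2: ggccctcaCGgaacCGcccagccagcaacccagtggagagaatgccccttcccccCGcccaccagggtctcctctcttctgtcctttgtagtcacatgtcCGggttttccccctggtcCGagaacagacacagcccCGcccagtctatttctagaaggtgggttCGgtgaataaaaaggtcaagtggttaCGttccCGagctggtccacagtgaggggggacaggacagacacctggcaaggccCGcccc
Sox6 start 3: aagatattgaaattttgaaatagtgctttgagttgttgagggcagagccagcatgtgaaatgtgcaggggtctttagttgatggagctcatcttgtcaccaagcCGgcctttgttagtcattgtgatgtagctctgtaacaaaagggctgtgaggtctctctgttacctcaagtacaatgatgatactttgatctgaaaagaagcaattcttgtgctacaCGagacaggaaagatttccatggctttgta

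Within the Sox6 gene body the acetylation was greatest at both ends and sparse between them. When the gene body was divided into 5 segments of equal length along transcription, regions covered 15.5%, 3.14%, 8.50%, 5.32% and 34.9% of segments 1 to 5 in the replicated list. The shares were 9.59%, 1.87%, 4.66%, 2.92% and 25.9% in replicate 1, and 14.0%, 3.62%, 8.62%, 6.13% and 36.3% in replicate 2. The last segment thus held the most acetylation in every list, and it held 51.8% of the covered base pairs of the gene body in the replicated list. It contained chr7:115471487-115478888, over the last exon, with a signal value of 32.2, chr7:115505467-115515257, a region of 9791 bp in an intron with 26.7, and chr7:115567352-115570076 with 25.7. In replicate 1 these had signal values of 24.5, 21.7 and 17.9, and in replicate 2 of 32.9, 30.5 and 26.2. A further region just past the 3′ end, chr7:115465764-115467936, had a signal value of 19.6. Their summits lay 470 to 572 kb from the first start, and no other coding gene starts within 702 kb on that side. The Sox6 locus also held many weak regions. Of its 64 regions 37, or 57.8%, were present in both replicates, near the 63.3% of all regions of the autosomes and X. Of the others, 12 were in replicate 2 but not replicate 1, 0 in replicate 1 but not replicate 2, and 15 in neither single-replicate list.

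**Figure D4:**
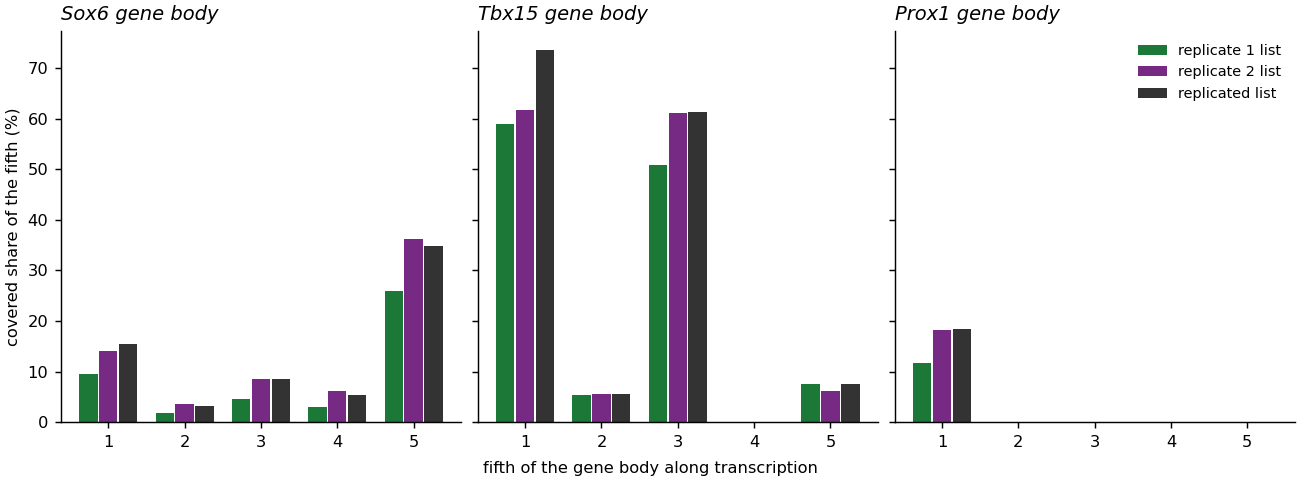
Share of each of 5 equal segments of the gene body covered by regions (percent), in the direction of transcription, for Sox6, Tbx15 and Prox1 in the lists of replicate 1, replicate 2 and both replicates. Coverage is highest in the last segment of Sox6, at 34.9% in the replicated list, in the first and the third segment of Tbx15, and only in the first segment of Prox1.

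Tbx15 (ENSMUSG00000027868.11, chr3:99240381-99354259, plus strand) had the longest acetylated length of the 5 genes, not separated from that of Maf in replicate 2, at percentile 99.2 of all protein-coding genes in the replicated list. This was percentile 99.3 in replicate 1 and 98.4 in replicate 2. The region over its coding start, chr3:99251369-99258502, was 7134 bp wide with a signal value of 45.1. In replicate 1 it was 6612 bp wide with a signal value of 36.0, and in replicate 2 it was 6310 bp wide with 46.8. Gm43120, an antisense gene, overlaps it. The gene model extends 13.4 kb upstream of this start, and at its 5′ end the region chr3:99240263-99241878 had a signal value of only 5.90, so the strongest mark was at the internal start. With the 5′ end of each gene model as the only start, Tbx15 had 2393 bp, the shortest length of the 5 genes instead of the longest.

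A second acetylated stretch lay in the middle of the Tbx15 gene body. The region chr3:99288967-99294377, with its summit 40.3 kb past the start, had a signal value of 20.7 in the replicated list, with 17.5 in replicate 1 and 20.4 in replicate 2. It was followed by chr3:99294549-99298783 with 14.2 and chr3:99299689-99302337 with 10.9, both present in both replicates. The first and the third of 5 equal segments of the gene body were covered over 73.6% and 61.4% in the replicated list, with 59.0% and 50.8% in replicate 1, and 61.7% and 61.2% in replicate 2, while the second was covered over 5.62% and the fourth not at all. When regions up to 12.5 kb apart were joined, Tbx15 lay in a domain of 14 regions with 32151 covered base pairs, rank 570 of 23088 domains. The domains at the starts of the other 4 genes had 14182 covered base pairs at Maf (rank 1947), 8652 at Sox6 (rank 3296), 8556 at Mafa (rank 3336) and 3142 at Prox1 (rank 8205). Of the 19 regions of the Tbx15 locus 16 were present in both replicates, or 84.2%, against 63.3% of all regions of the autosomes and X. The only other coding start in the locus is that of Wars2, the mitochondrial tryptophanyl-tRNA synthetase, with a promoter signal value of 29.2. The summit of the strongest intragenic region, chr3:99293996-99294195 on the plus strand of GRCm38, is printed because, of the strong distal summits examined in this way at Maf, Mafa, Sox6 and Tbx15, it alone held motif matches in 200 bases, an AP-1 match and then an E-box match, both in capitals:
Tbx15 distal region: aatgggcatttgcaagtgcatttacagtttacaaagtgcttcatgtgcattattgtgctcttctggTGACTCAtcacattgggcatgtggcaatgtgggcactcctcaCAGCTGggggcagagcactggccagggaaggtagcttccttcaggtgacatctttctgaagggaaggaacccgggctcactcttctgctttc

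Prox1 (ENSMUSG00000010175.13, chr1:190118035-190170714, minus strand) had the lowest promoter signal value, acetylated length and covered locus share of the 5 genes. Among all protein-coding genes its acetylated length was nevertheless at percentile 75.3 in the replicated list, at 60.1 in replicate 1 and at 76.0 in replicate 2. The region chr1:190169871-190171198 over its first starts had a signal value of 21.7 in the replicated list, with 18.0 in replicate 1 and 21.7 in replicate 2, at percentiles 37.5, 37.8 and 34.7 among genes with a promoter region. A weak second region of 1105 bp, with a signal value of 2.82, adjoined it in the replicated list, and in replicate 2 the stronger region was 2177 bp wide and reached into it. The acetylated length of 1637 bp in replicate 1 was 0.509 of the 3213 bp of replicate 2, the widest relative difference between replicates among the 5 genes.

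Beyond its start the Prox1 locus was bare. It held 3 regions in the replicated list, with 2 in replicate 1 and 3 in replicate 2, and no region lay in the 151 kb that reach from the regions at the start through the gene body to the downstream end of the locus in any list. The only distal region, chr1:190174855-190175563, had a signal value of 2.51 and was absent from replicate 1. No other coding gene starts in the locus, so no neighbour adds to its count. The antisense genes Prox1os and Gm28172 overlap or adjoin the acetylated stretch, and their share in it cannot be told apart. The promoter held many CG dinucleotides, with 20 at 64.8% GC upstream of the RefSeq start at 190170827, and 11 at 56.0% GC upstream of that at 190169515, against the median of 6 over the table. The first, chr1:190170828-190171077, is printed on the minus strand with CG dinucleotides in capitals, as the counterpart of the Sox6 promoters at a start with a narrow mark:
Prox1 first start: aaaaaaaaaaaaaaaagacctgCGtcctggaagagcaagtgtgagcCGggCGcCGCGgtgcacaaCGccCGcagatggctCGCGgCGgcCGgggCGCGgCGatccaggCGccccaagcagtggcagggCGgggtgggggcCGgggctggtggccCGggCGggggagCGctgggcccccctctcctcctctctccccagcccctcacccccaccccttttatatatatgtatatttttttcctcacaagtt

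Over the 5 loci, the replicated list held 128 regions, of which 80, or 62.5%, were present in both replicates. Over all regions of the autosomes and X the share was 63.3%, 53488 of 84450, so the loci did not stand out in this respect. All 49 regions with a signal value of at least 5 were present in both replicates, against 97.6% of such regions of the whole list, while 31 of the 79 weaker ones were, or 39.2%, against 32.6%. Each region named above with a signal value of at least 5 was thus present in both replicates, whereas counts of weak regions differ between them. More of the remaining regions were found in replicate 2, with 24, than in replicate 1, with 2, and the replicate 2 list is also the longer one.

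The other members of the families were acetylated unevenly, given here by the acetylated length in the replicated list. Nrl, the rod photoreceptor gene of the large Maf group, had no promoter region. The small Maf genes, partners that lack an activation domain, all 3 had promoter regions, with 7002 bp at Mafg, 6774 bp at Mafk and 4397 bp at Maff. Of the other SoxD genes, Sox13 had 5532 bp and Sox5 had no region within 1000 bp of its annotated coding starts, although it had one at the 5′ end of its gene model. Prox2, the other Prospero gene, had none within 1000 bp but 2044 bp within the wider window. Of the T-box genes nearest to Tbx15, Tbx1 had 2809 bp and Tbx18 2122 bp, but 974 bp and 2004 bp in replicate 1 and 2285 bp and 2124 bp in replicate 2, so their order depends on the list. No promoter region was found at Tbx10, Tbx20 and Tbx22. Signal values of these T-box genes were 4.70 at Tbx1 and 13.5 at Tbx18, against 45.1 at Tbx15.

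Of 22 other regulators of fibre type, all had a promoter region in each list, and their median acetylated length was 5978 bp, against 6961 bp for the 5 genes and 1470 bp for all protein-coding genes. Mef2d, a MADS-box factor, and Nfix, which turns on the late fetal programme, filled the whole window of 10000 bp. Esrrg, a nuclear receptor of oxidative fibres, had the lowest value of that list at 995 bp. Prox1, with 3142 bp, had a shorter length than every one of these 22 but Esrrg, and Tbx15, with 9648 bp, a shorter one than Mef2d, Nfix and Nfatc1.

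**Figure D5:**
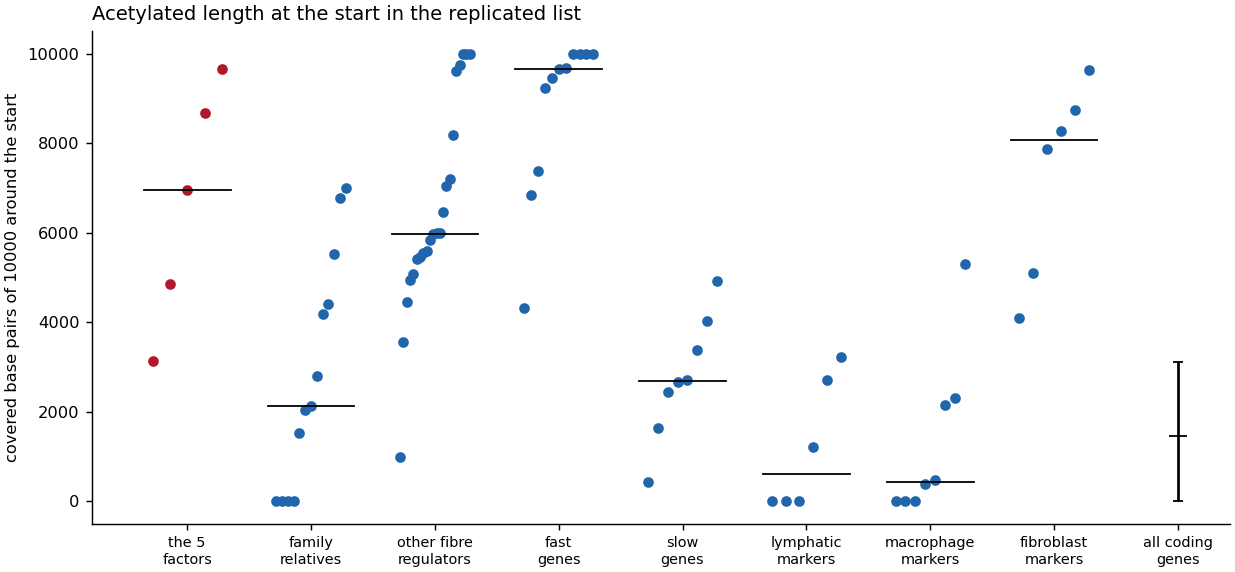
Acetylated length (covered base pairs of 10000 around the start) in the replicated list for the 5 factors, their family relatives, other regulators of fibre type, fast and slow contractile genes and markers of other cell types; each point is a gene, black lines are medians and the last column is the median of all protein-coding genes with bars from the first to the third quartile. The 5 factors spread from 3142 bp to 9648 bp, around a median of 6961 bp, while lymphatic markers have a median of 609 bp and macrophage markers one of 433 bp, which was 144 bp in replicate 1 and 918 bp in replicate 2.

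Prox1, Maf and Tbx15 are also used by other cells of muscle, whose markers were read beside them. Of 6 markers of lymphatic endothelium, which uses Prox1, 3 had a promoter region in each list, with signal values in the replicated list of 13.9 at Pdpn, 10.7 at Flt4 and 4.85 at Lyve1, and Ccl21a, Mmrn1 and Reln had none and an acetylated length of 0. Of 8 markers of macrophages and leukocytes, which use Maf, 5 had such a region in the replicated list and 3 in both replicates, and Adgre1, Cx3cr1 and Ptprc were at 0. Csf1r had 5.80, Lyz2 4.25, C1qa 3.87 and Mrc1 3.87 as signal values, against 38.3 at Maf. The remaining one, Cd68, had 42.7 in the replicated list, but 3.40 in replicate 1 and no promoter region in replicate 2. Of 6 fibroblast and fibro-adipogenic markers, cells that also use Tbx15, all 6 had a promoter region in each list, with acetylated lengths from 4095 to 9645 bp and signal values from 8.75 at Lum to 22.5 at Col1a1, against 9648 bp and 45.1 at Tbx15. All 6 skeletal muscle fibre markers had one too, with a median acetylated length of 9595 bp, as did all 6 blood endothelial markers, with a median of 6351 bp. Of 6 satellite cell markers 5 had one, and Calcr had none. The median of the satellite cell markers was 3056 bp in the replicated list, but 1370 bp in replicate 1 and 3084 bp in replicate 2. What part these cell types have in the acetylation of the 5 genes was not tested.

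The shape of the acetylation was compared over the 15415 protein-coding genes that had such a profile, as the covered share of 500-bp bins over 20 kb to each side of the start, with both single-replicate lists joined. The points share their libraries and neighbouring bins share regions, so the correlations over 80 bins in each list are descriptions. The profile most like that of Maf was Eef1a2, a translation elongation factor of muscle and neurons, with Pearson's r of 0.91, followed by Nfil3, a leucine zipper factor, at 0.89 and Aimp2, a scaffold of the tRNA synthetase complex, at 0.87. Most like Mafa were Uso1 (0.79), Ggnbp2 (0.78) and Rps9 (0.78), and most like Sox6 were Arrdc3 (0.75), Arid1a (0.74) and Gzf1 (0.74). Most like Tbx15 were Krt80 (0.75), Wee1 (0.74) and Rhbdf1 (0.73). Prox1 had r of 0.91 with each of Mcm9, Cetn3 and Bbs12. Its narrow profile was a common one, since 1% of the 15415 genes reached an r of 0.86 or more with it, against 0.55 for Tbx15. Between the 2 replicates of the gene itself r was 0.83 at Prox1, 0.90 at Maf, 0.87 at Sox6, and 0.85 at both Mafa and Tbx15. The genes named for Prox1, and Eef1a2 for Maf, had r no lower than that, so which gene is most like Prox1 or Maf is not resolved.

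Short motifs were searched, on either strand and up to 250 bp from a summit, in the 112 distal regions of the 5 loci and in all 69271 distal regions of the replicated list. The Sox motif AACAAT was in 24.1% of the windows of the 5 loci, against 20.8% of all, the Maf core TGCTGAC in 8.93%, against 9.74%, and the T-box motif AGGTGTGA in 0.893%, against 2.06%. The NFI motif TTGGCA was in 34.8%, against 28.5%. The E-box CAGCTG of myogenic factors was in 19.6%, against 31.5%, the TEAD motif CATTCC in 16.1%, against 26.4%, and the AP-1 motif TGANTCA in 13.4%, against 17.1%. The Six-protein motif TCAGGTT was in 7.14%, against 8.08%, and the MEF2 motif in 7.14%, against 8.69%. The glucocorticoid receptor element was in 0.893%, which is 1 window as for the T-box motif, against 0.465%. The windows of the 5 loci had a median GC content of 45.4%, against 47.4% over all distal regions. AP-1 and E-box strings do not contain each other, windows of 1 locus can overlap, and a match is a description of letters and not a site.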

How the data were processed

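H3K27ac ChIP-seq of mouse gastrocnemius was represented by 4 peak lists in narrowPeak format on mm10. Per the deposited descriptions, 1 list came from each of the 2 biological replicates, 1 from both pooled (91329 regions) and 1 is the replicated list; technical replicates shared an alignment and are not separate samples here. For each peak the authors deposited a signal value, a q-value as −log10 and a summit offset; the aligner, peak caller, thresholds and signal scale were not given in the sources used here, and the control library was not analysed here. Depth is unknown, so no interval that needs it is given.

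Genes were those of GENCODE M21, basic set, 21668 protein-coding genes with 41162 starts. A region was present in a replicate where at least 50% of the shorter region overlapped. Coordinates count from 1. Python 3.11.15, NumPy 2.4.6 and pysam 0.24.0 were used, and the scripts were tested on simulated data. There is 1 group, so no test was run. All 5 genes, their neighbours, the 3 strongest regions of a locus, the 3 longest and all unmarked genes of a list and the 3 most similar profiles were to be named; some of these are not reported here. Members and lists were chosen with earlier results of these data known; examples outside that rule were chosen after their values were seen. Alternatives changed the list, the −log10 q minimum, the promoter distance, the starts, the flank, the overlap, the window or the assignment of regions.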

Additional observations from a re-analysis of the deposited data

How the results depend on the processing

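All 5 genes kept a promoter region under each of the 8 alternatives, which included the replicate 1 list alone, the replicate 2 list alone and peaks with −log10 q of at least 5. The 5 loci together held between 108 and 136 regions, and counts of single loci fell to 10 for Maf and 14 for Mafa with a flank of 50 kb, and to 11 for Mafa when regions went to the nearest coding start. When only the 5′ end of a gene model counted as its start, the acetylated length was 2393 bp at Tbx15, now the shortest of the 5, and 3621 bp at Sox6. Using every start of the full annotation was added after the data were seen. Across all alternatives, the acetylated length of a gene moved past the replicate spread in 12 of 35 cases and the covered base pairs of a locus in 7 of 30. With 100 bp to each side of a summit in place of 250, each motif had fewer matches, since the window is shorter. No paired analysis was possible because there is 1 group of samples. Depth is unknown, so absence from a list does not show absence of the mark.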

Other observations

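The other regulators of fibre type differed more in the acetylation of their loci than at their starts. Regions covered 45.4% of the Nfix locus in the replicated list, at percentile 99.8 of all protein-coding genes, and 22.4% of the Mef2d locus. Nfatc1, a target of calcineurin in slow fibres, had 26.0%, and Tead1, which binds the MCAT element, had 25.6%. The loci of Eya1, a coactivator of muscle regulators, and of Esrrg had 3.73% and 2.14%, against 1.24% for Prox1 and a median of 6.32% over all protein-coding genes. Fnip1, which restrains the oxidative programme, had an acetylated length of 6470 bp in the replicated list, but of 3426 bp in replicate 1 and 6174 bp in replicate 2.

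Of the contractile genes, the 11 fast ones were marked at a start in every list, with a median acetylated length of 9659 bp. The slow ones had a median of 2696 bp, but of 1368 bp in replicate 1 and 2452 bp in replicate 2. A promoter region was listed for 8 of 8 of them in the replicated list, for 6 in replicate 1, without Myh7 and Myh7b, and for 7 in replicate 2, without Myh7b.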
